A study of Mus musculus with 8 samples.

Results

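The departure from additivity of TP-16 and an anti-PD-1 antibody was measured in CT26 tumors, as the effect of both agents given together minus the sum of the effects of each agent given alone. For each probe it was the mean log2 level in the combination group, minus the mean in the TP-16 group, minus the mean in the anti-PD-1 group, plus the mean in the vehicle group. All 8 arrays of the series enter this contrast, 2 in each of the 4 groups, so 8 of 8 samples were used. A departure of 0 means that the joint effect equalled the sum of the single effects on the log2 scale, where a sum stands for a product of fold changes. A departure above 0 means that the level under both agents lay above that sum, and a departure below 0 that it lay below it. A gene that falls with each agent and falls no further with both therefore has a departure above 0.

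CT26 is a colon carcinoma cell line from BALB/c mice. The methods give female mice of 6 to 10 weeks as the stock used, and the tumors grew under the skin of the flank from 500000 implanted cells. The paper names BALB/c mice as hosts of CT26 tumors treated with these agents, though its array methods give no strain. All 4 groups carried such tumors and were treated for 2 weeks with vehicle, with TP-16 (named BY001 in the labels, 75 mg/kg by mouth each day), with an antibody against PD-1 (injected into the peritoneum at 50 µg a dose, with 2 doses a week), or with both agents at these doses. No group carried a transgene or a deletion, the tumor cells come from 1 line, and neither labels nor methods tie a sample to a single tumor or to several combined. The p-values therefore measure the spread between these samples only, which may be technical.

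Prostaglandin E2 acts on tumor and immune cells through the receptors EP1 to EP4. EP4, encoded by Ptger4, couples to the production of cAMP, which activates the transcription factor CREB, and is known for holding back T cells, NK cells and the maturation of myeloid cells in tumors. TP-16 is a small molecule that blocks EP4. PD-1, encoded by Pdcd1, is an inhibitory receptor of activated T cells, and its ligand PD-L1, encoded by Cd274, is induced by interferon gamma. The contrast asks whether blocking both pathways at once changed a transcript by more or by less than the separate changes add up to.

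Whole tumor RNA was hybridised to 1-colour Agilent arrays, all on 1 slide and read in 1 scan. Levels below are log2 intensities from which the array's own 75th percentile was subtracted, so they rank samples for a probe and not one gene against another. On the slide, the groups without the antibody lay in row 1 and those with it in row 2, while the groups given TP-16 lay in columns 3 and 4. An offset of a row or of a column that adds on the log2 scale therefore cancels in the departure, although it does not in the effect of either agent. Vim, a mesenchymal gene that CT26 cells express strongly, ran from 7.36 to 8.10 over the arrays and Krt18, a simple epithelial keratin, from 1.66 to 3.64, while Epcam was well above background on 1 of 8 arrays and Cdh1 ran from -3.79 to -2.05. Leukocyte genes were present on every array, with Ptprc (CD45) from 2.10 to 4.53 and Adgre1 (F4/80) from 2.50 to 5.22, except that Cd8a was well above background on 7 of 8. In whole tumors, fewer cells of a type and less RNA per cell cannot be told apart. The vehicle arrays lay farthest apart, and their difference had an SD over probes of 0.675, against 0.417 for the combination arrays.

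At a departure of at least 2-fold with an unadjusted limma p of at most 0.05, 851 of 31912 tested probes lay above the sum of the single effects (2.67%) and 171 lay below it (0.536%). Counted by gene, 604 of 21616 genes lay above (2.79%) and 105 below (0.486%). No probe passed a Benjamini-Hochberg adjusted p of 0.05 in limma, which is 0% of those tested, with a smallest adjusted p of 0.0704 while 2336 probes had an unadjusted p of 0.05 or less at any fold. Every call below is therefore a call at the unadjusted threshold, and the adjusted p of each named gene exceeded 0.05. The share of calls above the sum depended on the scaling of the arrays. It was 83.3% with the 75th percentile and 51.8% with quantile normalization, which called 461 probes above and 429 below. Normexp background correction called 198 above and 84 below, and an ordinary linear model 497 above and 108 below. Calls also moved with single arrays. Of the 31912 probes, 1788 were called above the sum and 238 below it without vehicle replicate 1, 833 above and 661 below without vehicle replicate 2, 1387 above and 220 below without TP-16 replicate 1, and 553 above and 214 below without TP-16 replicate 2. Without anti-PD-1 replicate 1 and replicate 2, 874 and 670 were called above and 251 and 256 below, and without combination replicate 1 and replicate 2, 907 and 658 above and 221 and 123 below. Counts of list members with an array left out are to be read against those numbers. Over all tested probes the median departure was 0.0056 with the 75th percentile and -0.048 with quantile normalization.

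Many of these calls rested on probes that were dim in some group. In 384 of the 851 probes called above the sum and in 62 of the 171 below it, at least 1 group had no array well above background, so the size of the departure is not measured there. Of the 26683 probes well above background on all 8 arrays, 380 were called above (1.42%) and 98 below (0.367%). Unless stated, list counts and medians below use every tested member, including members that were dim on some arrays. The genes described singly come from the probes well above background on all 8 arrays, unless stated. For 66.5% of these probes the 95% interval of the departure lay wholly within 2-fold of additivity in either direction. The standard error of a departure is 1.41 times that of the effect of 1 agent, since 4 group means enter it.

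The departures were also taken once from the 4 arrays with replicate number 1 and once from the 4 with number 2, which have no array in common. Over the 31912 tested probes these departures correlated at 0.0398, and over the probes measured on all arrays at -0.0977, as a description across probes that share labelling and slide. The numbers do not pair the samples, so each value is 1 of several ways to set the arrays against each other.

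**Figure D1:**
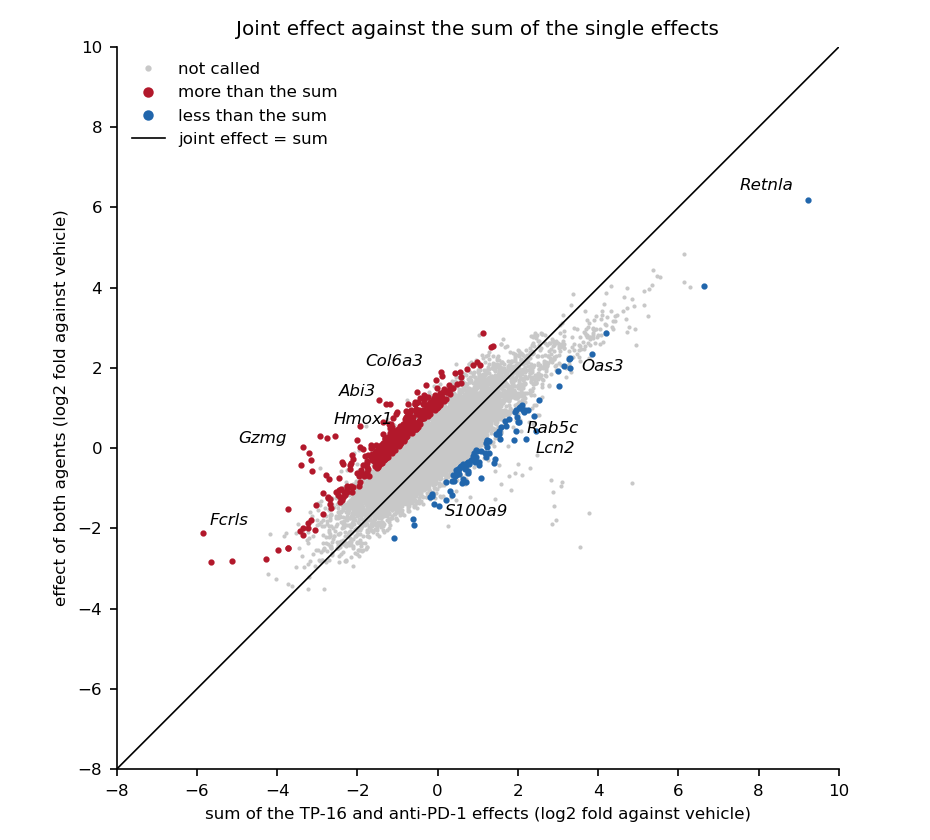
Each point is a probe well above background on all 8 arrays, with the summed effects of both single agents on the horizontal axis and the effect of both agents on the vertical axis, both in log2 fold against vehicle, and the line marks equality. The 380 red probes were called above the sum and the 98 blue probes below it, and Retnla at the upper right rose by 6.19 with both agents, to a mean level of 5.49 where the sum of the single effects gives 8.53.

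Most departures above the sum came with a lower level under TP-16 alone. Of the 380 probes, 357 were lower under TP-16 than under vehicle, 286 were lower under anti-PD-1, and 277 were lower under each of them. Over all 26683 probes these counts were 16443, 17009 and 13950. The single effects enter the departure with a minus sign and share the vehicle arrays, so these counts describe the called probes and test nothing. Against vehicle, 109 of the 380 were at least 2-fold lower under TP-16, 77 were at least 2-fold higher under the combination and 36 at least 2-fold lower under it, against 834, 1410 and 2068 of the 26683. On 174 of the 380 both combination arrays lay above the other 6 arrays, as they did on 3469 of the 26683. Of the 98 probes below the sum, 74 were higher under each single agent than under vehicle, 32 were at least 2-fold higher under TP-16 and 21 under anti-PD-1, and on 41 both combination arrays lay below the other 6. Over the 26683 probes these counts were 7181, 408, 469 and 7779.

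The granzyme genes Gzmc, Gzmd, Gzme, Gzmf and Gzmg were all called above the sum. They encode serine proteases that activated cytotoxic lymphocytes store in their granules, and lie beside Gzmb on chromosome 14. All 5 fell under TP-16 alone at the same unadjusted threshold, yet stood near the vehicle level when TP-16 was given with the antibody, while Gzmb did not take this course. For each of these genes the 250 bases before the transcription start are taken from RefSeq (GRCm38.p6, minus strand), and 3 of them are shown because the 5 genes moved together and Gzmb did not. Capitals mark the cAMP response element TGACGTCA, which reads the same on both strands, and the RUNX core TGTGGT or its reverse complement ACCACA. The windows are chr14:56159580-56159829 for Gzmg, chr14:56132594-56132843 for Gzmd and chr14:56262335-56262584 for Gzmb.
Gzmg: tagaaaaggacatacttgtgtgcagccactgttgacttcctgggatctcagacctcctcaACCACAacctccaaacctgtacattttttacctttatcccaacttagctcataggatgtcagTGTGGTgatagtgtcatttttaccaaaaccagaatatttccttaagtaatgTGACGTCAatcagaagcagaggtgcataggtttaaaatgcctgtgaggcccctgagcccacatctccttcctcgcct
Gzmd: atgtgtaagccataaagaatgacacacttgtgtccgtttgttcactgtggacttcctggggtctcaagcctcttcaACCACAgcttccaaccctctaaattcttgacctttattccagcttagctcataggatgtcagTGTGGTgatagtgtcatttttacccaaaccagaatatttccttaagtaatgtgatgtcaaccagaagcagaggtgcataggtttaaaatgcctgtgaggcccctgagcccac
Gzmb: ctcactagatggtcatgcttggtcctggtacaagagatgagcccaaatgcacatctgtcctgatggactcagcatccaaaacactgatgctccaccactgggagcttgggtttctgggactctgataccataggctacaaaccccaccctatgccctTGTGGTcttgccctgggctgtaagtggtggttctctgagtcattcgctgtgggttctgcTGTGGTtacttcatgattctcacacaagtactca

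The windows of Gzmd and Gzmg were 78.9% identical in a global alignment, and those of Gzmd and Gzme 94.8%, whereas Gzmd and Gzmb were 47.3% identical. The full cAMP response element stood 77 bases before the start of Gzmg, 82 before that of Gzmf and 57 before that of Gzmc, and was not found letter for letter in the windows of Gzmd, Gzme and Gzmb. It occurs in 1.55% of the 32851 promoter windows of this length in the table. The RUNX core had 2 matches in each of the 6 windows, and 14.0% of all windows hold at least 1. A match of letters is a description and not a binding site.

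Gzmg (array probe at chr14:56776297-56776573 in the mm9 build of the array annotation) stood at 1.95 and 3.67 on the vehicle arrays, -0.75 and -1.09 under TP-16, 3.08 and 3.29 under anti-PD-1, and 3.02 and 2.66 under both agents. The TP-16 arrays lay below all others, and the combination arrays lay between the vehicle arrays. The departure was 3.38 ± 0.76 (SE) on the log2 scale, a level 10.4-fold above the sum, with a 95% interval of 1.52 to 5.24 (limma, unadjusted p = 0.00449, adjusted p = 0.472). TP-16 alone lowered Gzmg by a log2 change of -3.73, while TP-16 added to the antibody changed it by -0.35 (unadjusted p = 0.539).

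Gzmd (chr14:56750116-56750175, mm9) read 1.61 and 2.96 under vehicle, -1.30 and -1.37 under TP-16, 2.63 and 2.77 under anti-PD-1, and 2.36 and 1.98 under both. Its departure was 3.10 ± 0.60 (unadjusted p = 0.00217, adjusted p = 0.412). Gzme read 4.67 and 6.13, then 1.90 and 1.95, then 5.59 and 5.81, and then 5.31 and 4.91 in the same order of groups, with a departure of 2.88 ± 0.65. The same order therefore held in Gzmd and Gzme as in Gzmg, with the TP-16 arrays apart from the other 6. Gzmf departed by 2.99 ± 0.92 and Gzmc by 2.05 ± 0.50. Gzmc fell by 2.55 under TP-16 alone and was 0.34 below vehicle under both agents on the log2 scale. With each array left out in turn, Gzmg ran from 2.52 to 4.24, Gzmd from 2.42 to 3.77 and Gzme from 2.15 to 3.61, lowest without vehicle replicate 2 and highest without vehicle replicate 1, and stayed called. Gzmf was 1.91 without vehicle replicate 2 and 4.07 without vehicle replicate 1. It was not called without anti-PD-1 replicate 1 (2.85) or combination replicate 1 (2.82), nor with an ordinary linear model, which leaves its estimate at 2.99. The sequences of these genes are close to each other, so a probe may also bind the transcripts of its neighbours, and the 5 values may not be independent.

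Of 15 genes of cytotoxic granules and death ligands, these 5 were called above the sum and 0 below it, against 2.79% and 0.486% of all genes, while the median departure of the list was 0.049 against -0.0017 over all genes. The other 10 members ranged from below to above 0. Gzmb, the granzyme used most often as a marker of killer cells, read 2.17 and 3.70 under vehicle, 2.93 and 2.94 under TP-16, 4.21 and 4.07 under anti-PD-1, and 4.37 and 4.78 under both. The combination arrays were the highest, and the TP-16 arrays lay between the vehicle arrays. Its departure was 0.43 with an interval of -1.22 to 2.08, and ran from -0.33 without vehicle replicate 2 to 1.20 without vehicle replicate 1, where it passed the threshold. Over the list, 7 genes were called above the sum without vehicle replicate 1, and 5 above and 5 below it without vehicle replicate 2.

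**Figure D2:**
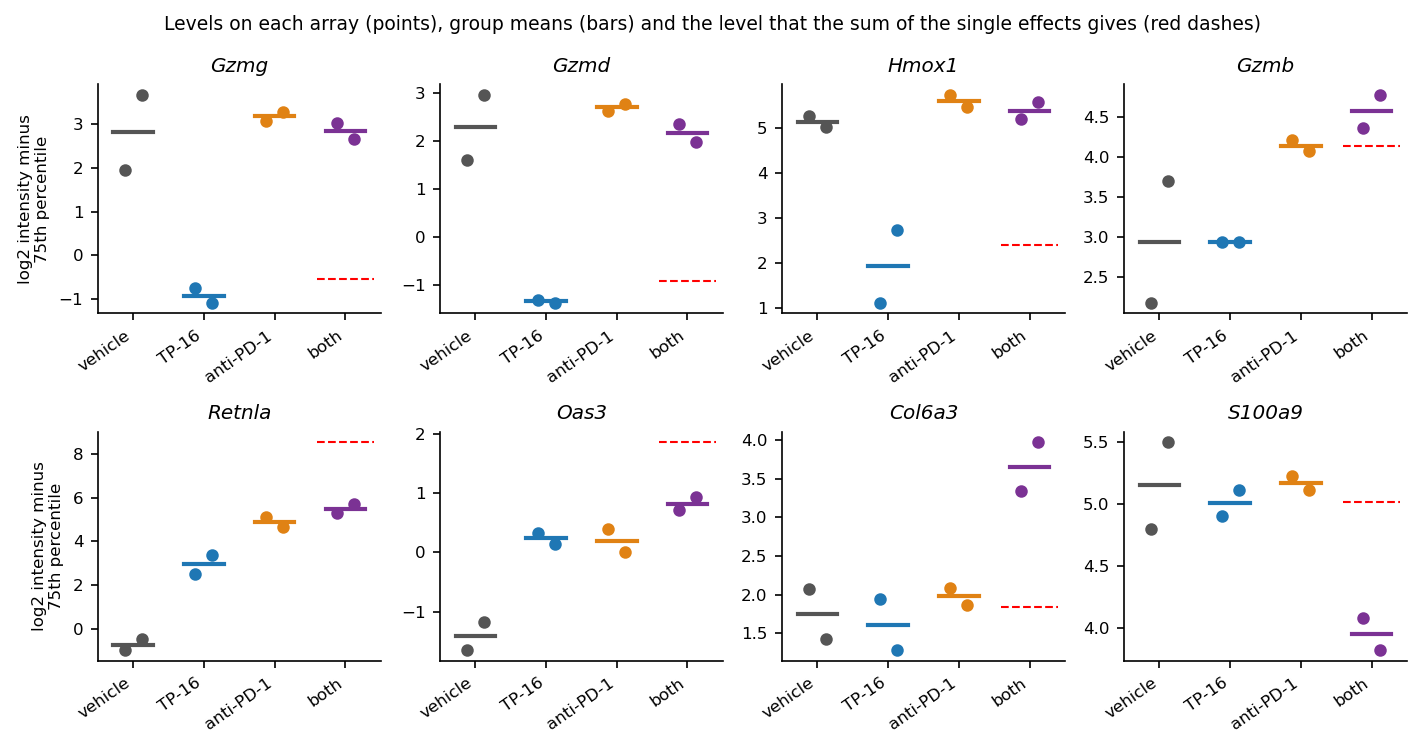
Levels of 8 genes on each array (points), as log2 intensity after subtraction of each array's 75th percentile, with the mean of each group (bars) and the level that the sum of the single effects gives for both agents (red dashes). Gzmg, Gzmd and Hmox1 stood far above the dashes under both agents, Retnla, Oas3 and S100a9 below them, and Col6a3 rose only with both, while the combination arrays of Gzmb lay less than 1 log2 unit above the dashes.

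Hmox1, which encodes the heme-degrading enzyme heme oxygenase 1, followed the course of the granzymes. At chr8:77624406-77624466 (mm9) it read 5.27 and 5.02 under vehicle, 1.11 and 2.74 under TP-16, 5.74 and 5.47 under anti-PD-1, and 5.20 and 5.58 under both. The TP-16 arrays were the lowest, though they differed from each other more than the arrays of any other group, and the combination overlapped both vehicle and anti-PD-1. The departure was 3.0 ± 0.72 (unadjusted p = 0.00628, adjusted p = 0.489), from 2.18 without TP-16 replicate 1 to 3.81 without TP-16 replicate 2. Slc40a1, the iron exporter ferroportin, departed by 2.22 ± 0.89 with an interval of 0.04 to 4.40, and its call was lost without any 1 of 6 arrays, where it ranged from 1.35 (TP-16 replicate 2) to 2.54 (anti-PD-1 replicate 1). The other 4 arrays to lose it were vehicle replicate 1, anti-PD-1 replicate 2 and both combination arrays.

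Tff1, a trefoil peptide secreted by mucosal epithelium, read -2.25 and -0.97 under vehicle, -3.99 and -4.03 under TP-16, -1.86 and -1.69 under anti-PD-1, and -1.64 and -0.95 under both. It departed by 2.88 ± 0.62 (unadjusted p = 0.00359, adjusted p = 0.446) and, like the granzymes, fell under TP-16 alone only. Ptn, the secreted growth factor pleiotrophin, departed by 3.24 ± 0.85, with TP-16 arrays at -3.08 and -4.48 against -2.14 and -1.09 under vehicle. Another probe of Ptn gave 1.44 ± 1.21 and was not called. With normexp background correction Tff1 departed by 1.62 and Ptn by 1.84. The replicates of number 1 alone gave 1.31 for Ptn and those of number 2 gave 5.16.

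Fcrls, an Fc receptor-like gene of tissue macrophages and microglia, had the highest called departure of the genes measured on all arrays, with another order of groups. It read 1.70 and -0.68 under vehicle, -1.89 and -2.22 under TP-16, -2.26 and -3.25 under anti-PD-1, and -1.97 and -1.24 under both, so all 6 treated arrays lay below both vehicle arrays, the anti-PD-1 arrays were the lowest, and TP-16 overlapped the combination. The single effects were -2.57 and -3.27, the joint effect was -2.12 and the departure 3.71 ± 1.12. It was not called without anti-PD-1 replicate 2 (3.22) or combination replicate 2 (3.35), and was 2.53 without vehicle replicate 1 and 4.90 without vehicle replicate 2.

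In 3 further genes, as in Slc40a1, Tff1 and Ptn above, the mean level was lowest under TP-16 alone and highest under the combination. Abi3, an adaptor of the actin machinery, read -0.08 and 0.36 under vehicle, -0.93 and -1.91 under TP-16, 0.45 and 0.05 under anti-PD-1, and 1.00 and 1.69 under both. The combination arrays were the highest and the TP-16 arrays the lowest. Its departure was 2.66 ± 0.57 (unadjusted p = 0.00361, adjusted p = 0.446), and its effect under both agents was 1.20 (unadjusted p = 0.0248). Gpr182, an orphan-type receptor of vascular and lymphatic endothelium, departed by 2.48 ± 0.45 and Nrep by 2.27 ± 0.63, while their effects under both agents, 0.54 and 1.09, did not pass the test. All 3 calls held with each array left out, but Gpr182 departed by 1.14 with normexp background correction.

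The estimates of the listed endothelial genes all lay above the sum, but only some of them were called. The list as a whole was not tested. Of 13 endothelial genes all 13 had a departure above 0 and 6 were called (0 below the sum), against 2.79% and 0.486% of all genes, with a median of 0.89 against -0.0017 over all genes. The median was -0.34 under TP-16 alone, -0.26 under anti-PD-1 alone and 0.47 under both agents. The mean level of the list was 0.21 and 0.21 on the vehicle arrays, 0.08 and -0.43 under TP-16, 0.11 and -0.06 under anti-PD-1, and 0.42 and 0.88 under both, so both combination arrays were above the other 6. Tek, the receptor of angiopoietins, was well above background on 7 arrays and read -3.70 and -3.20, then -3.75 and -4.60, then -3.71 and -4.66, and then -2.49 and -1.89 in the order vehicle, TP-16, anti-PD-1 and both. Its departure was 2.72 ± 0.63 (unadjusted p = 0.00515, adjusted p = 0.484) and it stayed called with each array left out, at 2.25 to 3.19, while normexp background correction gave 1.21.

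Esam, an adhesion molecule of endothelial junctions, departed by 1.29 ± 0.41, and Cldn5, a claudin of tight junctions, by 1.28 ± 0.49. The other called members, named after their values were seen, were the junction cadherin Cdh5 (1.22 ± 0.41), the adhesion molecule Pecam1 (1.07 ± 0.40) and the sialomucin Emcn (1.04 ± 0.30). Esam read 1.32 and 0.89 under vehicle, 0.63 and 0.01 under TP-16, 0.80 and 0.68 under anti-PD-1, and 0.97 and 1.52 under both, so the combination overlapped vehicle and the single agents lay lower. Its call was lost without vehicle replicate 1, TP-16 replicate 2, anti-PD-1 replicate 2 or combination replicate 2, at 0.98 to 1.22. The call of Cldn5 was lost without vehicle replicate 2, TP-16 replicate 2, either anti-PD-1 array or combination replicate 2, at 0.82 to 1.37. Over the list, 1 gene was called without TP-16 replicate 2, anti-PD-1 replicate 2 or combination replicate 2, 3 without vehicle replicate 1 or with the slide column as a block, and 2 with an ordinary linear model, while the median stayed between 0.61 and 1.21 with each array left out.

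The mean level of the collagen genes was highest under the combination. Of 16 genes, 15 had a departure above 0, 6 were called above the sum and 0 below it, against 2.79% and 0.486% of all genes, and the median departure was 1.01. On probes measured on all 8 arrays 5 were called. Col18a1 and Col8a1, with effects of -0.33 and -0.16 under both agents, lay below vehicle there. Against vehicle the median effect was -0.12 under TP-16, 0.14 under the antibody and 1.25 under both agents. The mean level of the list ran from 1.1 to 1.69 on the 6 other arrays and stood at 2.39 and 2.67 on the combination arrays. Col6a3, a chain of the microfibrillar collagen VI (chr1:92663663-92663722, mm9), read 2.07 and 1.43 under vehicle, 1.94 and 1.28 under TP-16, 2.09 and 1.87 under anti-PD-1, and 3.34 and 3.97 under both. The groups other than the combination overlapped, and both combination arrays were above them. The departure was 1.81 ± 0.48, which is 3.51-fold above the sum (unadjusted p = 0.0101, adjusted p = 0.530), and ran from 1.48 to 2.14 with each array left out. Another probe of Col6a3 also departed above the sum, by 2.58 ± 0.78, but with another order of groups, with effects of -2.10 under TP-16, -1.04 under the antibody and -0.56 under both agents. Over the list, 3 genes were called without combination replicate 2 and 9 without TP-16 replicate 1, settings that called 658 and 1387 of all 31912 probes above the sum.

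Col6a2, its partner chain, departed by 1.86 ± 0.64 and Col5a2, of the fibril-forming collagen V, by 1.71 ± 0.44. Col6a2 was not called without vehicle replicate 1, TP-16 replicate 2, either anti-PD-1 array or combination replicate 2, at 1.33 to 1.98. Its other probes gave 1.89 ± 0.54, called, and 0.63 ± 0.41, not called. Another probe of Col5a2, above background on 5 arrays, gave 0.67 ± 1.23, and normexp gave 1.09. The remaining called members, named after their values were seen, were Col6a1 (1.24 ± 0.33), the basement membrane gene Col4a1 (1.07 ± 0.23) and Col11a1, which was well above background on 2 arrays only. The fibroblast list had a median of 0.48 with 0 of 13 genes called, against 2.79% of all genes above the sum and 0.486% below it. The median was 0.23 without TP-16 replicate 2, and 4 genes were called without TP-16 replicate 1, which called 1387 of the 31912 probes above the sum. Its mean level was 2.87 and 2.67 under vehicle, 2.92 and 2.57 under TP-16, 3.22 and 3.02 under anti-PD-1, and 3.39 and 3.70 under both.

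**Figure D3:**
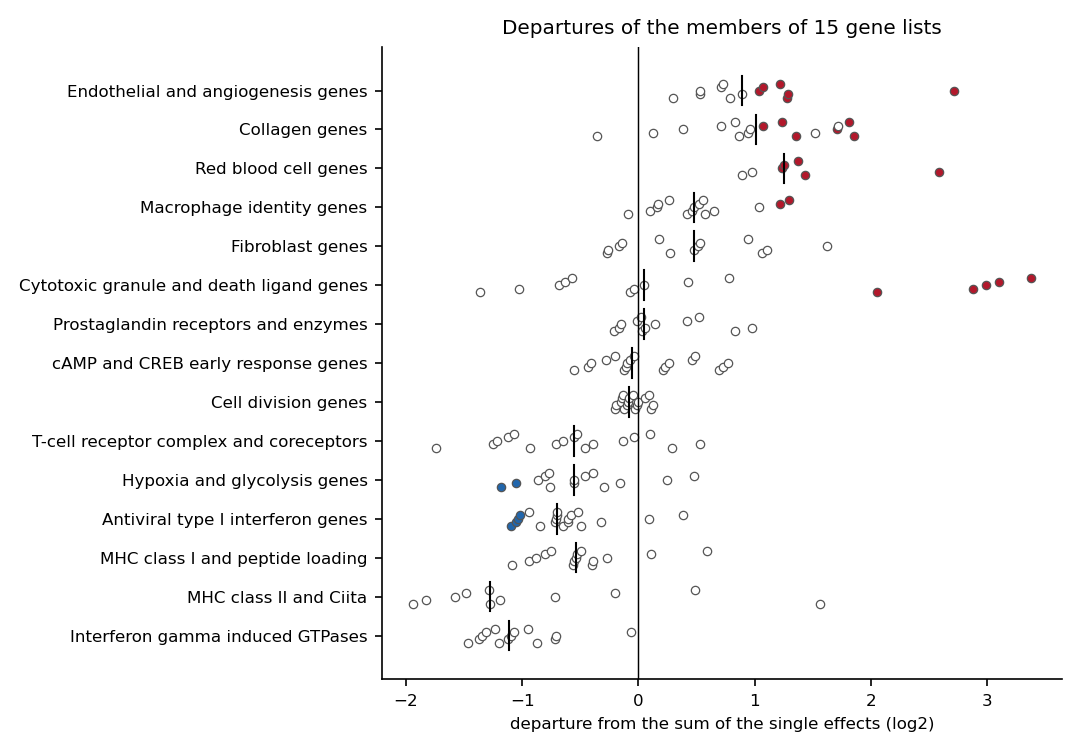
Departure from the sum of the single effects (log2) of each tested member of 15 gene lists, with filled points for members called at 2-fold and unadjusted p and a bar at the median. All 13 endothelial genes lay above 0 and all 14 interferon-induced GTPases below it, while the filled points of the cytotoxic list were the 5 granzymes between 2.05 and 3.38.

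Red blood cell genes were lower in every treated group than in vehicle, and the fall under both agents was far less than the sum. All 7 tested genes departed above 0 and 5 were called above the sum, against 2.79% of all genes, or 4 on probes measured on all 8 arrays. The median was 1.25, with median effects of -1.95 under TP-16, -1.58 under anti-PD-1 and -2.28 under both. Without vehicle replicate 1 the median was 0.93 with 1 gene called, without TP-16 replicate 2 or combination replicate 2 it was 1.12 and 1.15 with 2 called, and an ordinary linear model called 3. Hbb-bt, a beta-globin gene, read 6.72 and 5.84 under vehicle, 4.26 and 3.91 under TP-16, 4.41 and 4.59 under anti-PD-1, and 3.63 and 3.85 under both. All 6 treated arrays lay below both vehicle arrays. It departed by 1.43 ± 0.43, and was not called without vehicle replicate 1 (0.99), TP-16 replicate 2 (1.26) or combination replicate 2 (1.32). Alas2, the heme synthesis enzyme of red cell precursors, departed by 1.37 ± 0.44, and by 0.94 without vehicle replicate 1, 1.21 without TP-16 replicate 2, 1.33 without anti-PD-1 replicate 1 and 1.15 without combination replicate 2, where it was not called. Klf1, a factor of the red cell lineage, was well above background on 3 arrays, so the size of its departure is not measured. The other calls, named after their values were seen, were Hbb-b1 (1.24 ± 0.34) and Hbb-b2 (1.25 ± 0.43). The globin probes may bind the transcripts of neighbouring globin genes.

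Macrophage genes showed a small departure above 0 in 14 of 15 members, with 2 called above the sum, against 2.79% of all genes, and a median of 0.48. The median ran from 0.21 without combination replicate 2 to 0.72 without vehicle replicate 1. Mertk, a receptor for the uptake of dying cells, read -0.34 and -0.94 under vehicle, -0.39 and -0.59 under TP-16, -0.66 and -0.94 under anti-PD-1, and 0.29 and 0.86 under both. Only the combination stood apart, with both arrays above the other 6, and the departure was 1.22 ± 0.39. It was not called without vehicle replicate 1, TP-16 replicate 2, anti-PD-1 replicate 2 or combination replicate 2, at 0.92 to 1.12. Marco, a scavenger receptor, departed by 1.30 ± 0.34 with the lowest levels on the TP-16 arrays (-4.10 and -4.27), and by 0.95 without vehicle replicate 2, 0.90 with quantile normalization and 0.42 with normexp background correction. Fabp4, a fatty acid carrier of fat cells, macrophages and endothelium, departed by 1.08 ± 0.31, and by 0.80 without TP-16 replicate 2, 1.00 without anti-PD-1 replicate 2 and 0.93 without combination replicate 2. It was the only member called among 12 adipose genes, against 2.79% of all genes called above the sum. Their median was -0.53, or -0.15 without vehicle replicate 1 and -0.88 with 5 called below and 1 above without vehicle replicate 2, where 661 and 833 of all 31912 probes were called.

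Retnla had the largest departure below the sum among called genes measured on all arrays. Without a call, the keratin gene Krt5 departed by -5.38 ± 3.47 and Krtdap by -4.36 ± 2.53. Retnla encodes a secreted protein of the resistin-like family that marks alternatively activated macrophages. At chr16:48844447-48844506 (mm9) it read -0.96 and -0.44 under vehicle, 2.53 and 3.38 under TP-16, 5.11 and 4.64 under anti-PD-1, and 5.30 and 5.69 under both. The 4 groups did not overlap. TP-16 alone raised it by 3.65, the antibody alone by 5.58 and both agents by 6.19, so the departure was -3.04 ± 0.50 (unadjusted p = 0.000986, adjusted p = 0.392), and it held from -3.46 to -2.61 with each array left out. On a linear scale of intensity over the 75th percentile the same means departed by 8.16 above the sum, so the direction for Retnla depends on the scale. Of the 98 measured probes below the sum it was the exception, as the other 97 kept their direction on the linear scale. Among 14 genes of alternatively activated macrophages and suppressor function it was the only one called (1 below the sum and 0 above it, against 0.486% and 2.79% of all genes), and the median was 0.18, from 0.040 without combination replicate 2 to 0.45 without combination replicate 1.

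Rab5c and Aqp9 had the smallest standard errors among the 12 largest departures below 0. Rab5c, a small GTPase of early endosomes, read 2.96 and 3.16 under vehicle, 4.88 and 5.05 under TP-16, 3.05 and 3.20 under anti-PD-1, and 3.49 and 3.48 under both. The TP-16 arrays stood above the other 6. Its departure was -1.55 ± 0.18 (unadjusted p = 0.000164, adjusted p = 0.222) and stayed between -1.65 and -1.45 with each array left out. Aqp9, a channel for water and glycerol, had effects of 0.55 under TP-16, 0.48 under the antibody and -0.41 under both, with a departure of -1.44 ± 0.18, but another probe of the gene gave 0.49 ± 0.68 and normexp gave -0.81.

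Lcn2, which encodes the iron-siderophore binding protein lipocalin 2, read 1.92 and 2.46 under vehicle, 3.05 and 3.98 under TP-16, 3.15 and 2.96 under anti-PD-1, and 2.84 and 2.01 under both. Each single agent lay above vehicle, while the combination overlapped vehicle. The departure was -1.96 ± 0.58, and -2.03 ± 0.53 on another probe. Prr7, a membrane adaptor of neurons and T cells, departed by -1.55 ± 0.35, with an effect of 0.90 for TP-16 alone and -1.18 for both. Ptgds, a prostaglandin D2 synthase, departed by -1.69 ± 0.52, and Dio2, the enzyme that activates thyroid hormone, by -1.78 ± 0.57. The calls of Dio2 were lost without vehicle replicate 1, TP-16 replicate 2, anti-PD-1 replicate 1 or combination replicate 2 (-1.63 to -1.30), and those of Ptgds without vehicle replicate 1, anti-PD-1 replicate 1 or combination replicate 2 (-1.54 to -1.36).

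Stfa2, an inhibitor of cysteine proteases, departed by -1.49 ± 0.50, Cysrt1 by -1.55 ± 0.50 and Gpha2, a glycoprotein hormone subunit, by -1.48 ± 0.56. In these 3 genes both combination arrays were the lowest of the 8. Gpha2 kept its call without either of 2 arrays only, TP-16 replicate 1 and vehicle replicate 2, and ran from -2.06 without the latter to -0.90 without vehicle replicate 1. Stfa2 lost it without vehicle replicate 1, TP-16 replicate 2, anti-PD-1 replicate 2 or either combination array (-1.49 to -0.98), and Cysrt1 without vehicle replicate 1, anti-PD-1 replicate 2 or combination replicate 2 (-1.43 to -1.27). Epidermis and hair follicle genes, of which 6 were tested, stood at 1.03 on TP-16 replicate 2 and 1.18 on anti-PD-1 replicate 2 and between -2.58 and -0.87 on the other arrays. Their part in these results was not tested.

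The chemokines Ccl1 and Xcl1, a ligand of CCR8 and a chemokine that cytotoxic T cells and NK cells release toward cross-presenting dendritic cells, were higher in all 3 treated groups than in vehicle. Xcl1 read -2.37 and -1.47 under vehicle, 0.01 and -0.06 under TP-16, -0.59 and -0.99 under anti-PD-1, and -0.14 and -0.58 under both, so the treated arrays were all above vehicle. Its departure was -1.46 ± 0.47, and it was not called without TP-16 replicate 1, anti-PD-1 replicate 1 or combination replicate 2 (-1.43 to -1.24). Ccl1 departed by -1.52 ± 0.43, and by -0.84 with normexp, while another probe of it, above background on 4 arrays, gave 1.06 ± 0.77. That probe was lower than vehicle in every treated group, by -1.06 under TP-16 and by -0.69 under the antibody and under both. Xcl1 was the only call among 14 genes of CXCR3 ligands and T-cell chemokines, against 0.486% of all genes called below the sum. The median of this list was -0.26. It ran from -0.52 without combination replicate 2 to 0.081 without vehicle replicate 1, and was -0.43 without vehicle replicate 2.

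Antiviral genes induced by type I interferon were higher with each agent, and most of them were higher with both by less than the sum. Ifit2 (0.38) and Rsad2 (0.09) lay above it, neither called. Of 19 genes, 17 had a departure below 0, 4 were called below the sum and 0 above it, against 0.486% and 2.79% of all genes, and the median was -0.70, with median effects of 1.04 under TP-16, 0.95 under the antibody and 1.46 under both. Oas3, a sensor of double-stranded RNA, read -1.65 and -1.18 under vehicle, 0.33 and 0.15 under TP-16, 0.39 and 0.01 under anti-PD-1, and 0.71 and 0.93 under both. The single agents overlapped each other, and the combination lay above them. The departure was -1.04 ± 0.31 (unadjusted p = 0.0151, adjusted p = 0.567). Its relatives Oasl2 and Oas1a departed by -1.1 ± 0.36 and -1.05 ± 0.31, and the deISGylase Usp18, named after its value was seen, by -1.02 ± 0.28. The median stayed between -0.91 (without vehicle replicate 2) and -0.47 (without anti-PD-1 replicate 1), but 0 genes were called without vehicle replicate 1 or anti-PD-1 replicate 1, 1 with quantile normalization, the slide column as a block or combination replicate 1 left out, and 2 without either TP-16 array or combination replicate 2. Without vehicle replicate 1, Oas3 was at -0.81, Oas1a at -0.79 and Oasl2 at -0.80. Without anti-PD-1 replicate 1 they were at -0.85, -0.86 and -0.82.

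Genes of hypoxia and glycolysis lay below the sum in 12 of 14 members, with 2 called below and 0 above, against 0.486% and 2.79% of all genes, and a median of -0.55. Without vehicle replicate 2, TP-16 replicate 2 or combination replicate 2, 0 were called, 1 without anti-PD-1 replicate 2, and 4 without TP-16 replicate 1 or combination replicate 1. Car9, a carbonic anhydrase induced by low oxygen, read 3.27 and 2.70 under vehicle, 3.30 and 3.80 under TP-16, 4.08 and 3.83 under anti-PD-1, and 3.53 and 3.16 under both. The combination overlapped vehicle and TP-16, and the anti-PD-1 arrays were the highest. The departure was -1.18 ± 0.39, and -1.01 ± 0.39 on another probe. Ankrd37, another hypoxia-inducible gene, departed by -1.05 ± 0.33. Car9 was not called without vehicle replicate 2, TP-16 replicate 2, anti-PD-1 replicate 1 or combination replicate 2 (-1.05 to -0.89), nor Ankrd37 without vehicle replicate 2, TP-16 replicate 2, anti-PD-1 replicate 2 or combination replicate 2 (-1.01 to -0.80).

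The neutrophil list held 2 calls below the sum among 17 genes, against 0.486% of all genes, with a median of 0.30. The median was 0.018 with quantile normalization and 0.080 without vehicle replicate 2, and without TP-16 replicate 2, anti-PD-1 replicate 1 or combination replicate 2 the list had 0 calls. Without vehicle replicate 1, 4 genes were called above the sum and 1 below. S100a9, a subunit of calprotectin, read 4.80 and 5.50 under vehicle, 4.90 and 5.11 under TP-16, 5.23 and 5.11 under anti-PD-1, and 4.08 and 3.82 under both. The first 3 groups overlapped and the combination arrays lay below them, with a departure of -1.07 ± 0.35. Cxcl1, a ligand of CXCR2 that attracts neutrophils, was also lowest under the combination, with arrays at 1.62 and 0.81 against 2.02 to 2.65 on the others and a departure of -1.36 ± 0.43. S100a9 was not called without vehicle replicate 1, TP-16 replicate 2, anti-PD-1 replicate 1 or combination replicate 2 (-1.01 to -0.73), nor Cxcl1 without vehicle replicate 2, TP-16 replicate 2, anti-PD-1 replicate 1 or combination replicate 2 (-1.29 to -0.96). Csf3r, the receptor for granulocyte colony-stimulating factor, departed by 0.45 ± 0.47 and Cxcr2 by 1.06 ± 0.92, neither called.

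For the transcripts of T-cell activation the departure could not be told from 0. Of the panel Gzmb, Tnf, Ifng, Prf1, Il2ra, Cd69, Lamp1 and Fasl, 0 of 8 were called, against 2.79% of all genes above the sum and 0.486% below it, and a count of 0 in a list this short is near that background. Ifng, the cytokine of activated T and NK cells, read -3.58 and -0.49 under vehicle, 0.75 and 0.00 under TP-16, 1.09 and 0.70 under anti-PD-1, and 1.67 and 2.38 under both. The combination arrays were the highest and the vehicle arrays the lowest, with an SD of 2.18 between the latter. The departure was -1.28 with an interval of -4.64 to 2.07, and it was -2.83 without vehicle replicate 2 and 0.26 without vehicle replicate 1. Tnf, an inflammatory cytokine, departed by 0.55 (-1.16 to 2.26), the pore-forming Prf1 by 0.78 (-0.77 to 2.32), the interleukin-2 receptor chain Il2ra by 0.02 (-1.40 to 1.44), the early activation marker Cd69 by 0.31 (-0.83 to 1.44) and the death ligand Fasl by -0.57 (-2.69 to 1.54). Other probes gave 0.69 ± 0.49 for Tnf and, above background on 5 arrays, 1.08 ± 0.66 for Il2ra, neither called. Only Lamp1, a lysosomal membrane protein, had an interval inside 2-fold (-0.43 to 0.36). On the linear scale Ifng (1.38) and Fasl (0.278) departed above the sum. Prf1 was called above the sum without vehicle replicate 1 (1.5) and Fasl and Ifng below it without vehicle replicate 2 (-1.48 for Fasl).

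**Figure D4:**
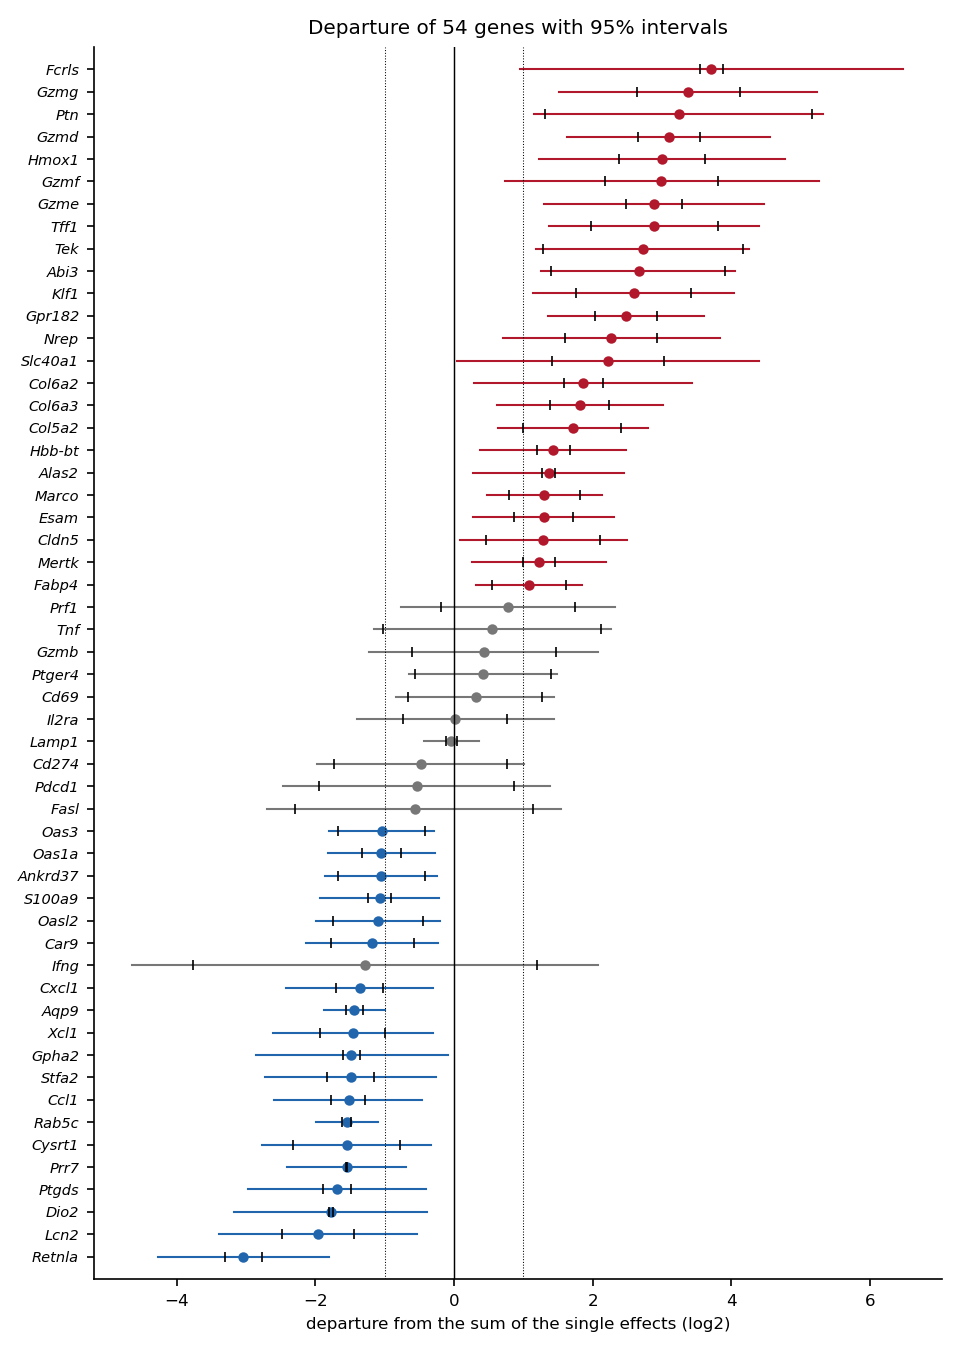
Departure (log2) of 54 named genes with 95% intervals from limma, in red for calls above the sum, blue for calls below it and grey for genes not called, with black ticks for the departures from the arrays of replicate number 1 and number 2 and dotted lines at 2-fold. Ifng had the interval from -4.64 to 2.07, and Rab5c, Aqp9 and Lamp1 had the narrowest intervals.

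The targets of the agents showed no called departure. Ptger4, which encodes EP4, read -0.37 and 0.01 under vehicle, 0.78 and 0.19 under TP-16, 0.71 and 0.28 under anti-PD-1, and 1.29 and 1.87 under both, with the combination arrays above all others and a departure of 0.42 (-0.65 to 1.49). Another probe of Ptger4, above background on 7 arrays, departed by -0.08 ± 0.54. Pdcd1 departed by -0.54 (-2.46 to 1.38) and Cd274 by -0.48 (-1.97 to 1.01), though each was highest on the combination arrays. On the linear scale both departed above the sum, by 0.786 and 2.78. Without vehicle replicate 2 both were called below the sum, at -1.38 and -1.09, and without vehicle replicate 1 they stood at 0.30 and 0.13. Of 12 prostaglandin receptors and enzymes 0 were called and the median was 0.042, and of 18 cAMP and CREB response genes 0 were called with a median of -0.053. With each array left out these medians ran from 0.0155 to 0.194 and from -0.0762 to 0.0464. The list of PD-1 and other checkpoints had 0 calls among 14 genes. Its median was 0.047, or 0.24 over the 10 genes measured on all arrays. Of all genes 2.79% were called above and 0.486% below, and counts of 0 in lists this short are near that background. Without vehicle replicate 1 its median was 0.32 with 2 called above, and without vehicle replicate 2 it was -0.35 with 6 called below and 1 above.

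The values of interferon gamma targets and antigen presentation depended on which vehicle array was used. All 14 interferon gamma-induced GTPases, which act against intracellular pathogens, had departures below 0 with a median of -1.11, yet 0 were called. Their mean level was 0.43 on vehicle replicate 1, 2.60 on vehicle replicate 2, 3.48 and 3.02 under TP-16, 3.66 and 3.48 under anti-PD-1, and 4.17 and 4.37 under both. Without vehicle replicate 1 the median was 0.047 with 0 calls, and without vehicle replicate 2 it was -2.26 with 13 of 14 called below the sum, in a setting that called 661 of all 31912 probes below it against 171 with all arrays. The 11 genes of MHC class II, Ciita included, went the same way, from -1.28 with all arrays to 0.14 without vehicle replicate 1, with 1 called above the sum, and -2.62 without vehicle replicate 2, with 8 called below it. Their mean level was -1.02 and 1.37 on the vehicle arrays. The 17 genes of the T-cell receptor complex and coreceptors moved from -0.55 to 0.27 and -1.24, with 0, 0 and 9 calls below the sum, and stood at -1.36 and 0.36 on the vehicle arrays. Skeletal muscle genes also differed between the vehicle arrays, at -0.29 and 1.08, and ran from 0.49 to 1.41 on the others, and their part in these results was not tested. MHC class I and peptide loading genes had a median of -0.54 (0 of 15 called), which was -0.099 without vehicle replicate 1 and -0.89 with 6 called below without vehicle replicate 2. NK cell receptors had -0.44 (0 of 14), then 0.42 and -1.35 with 5 called below. The interferon gamma signaling list had -0.060 (0 of 14), then 0.17 with 1 called above and -0.43 with 4 called below.

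**Figure D5:**
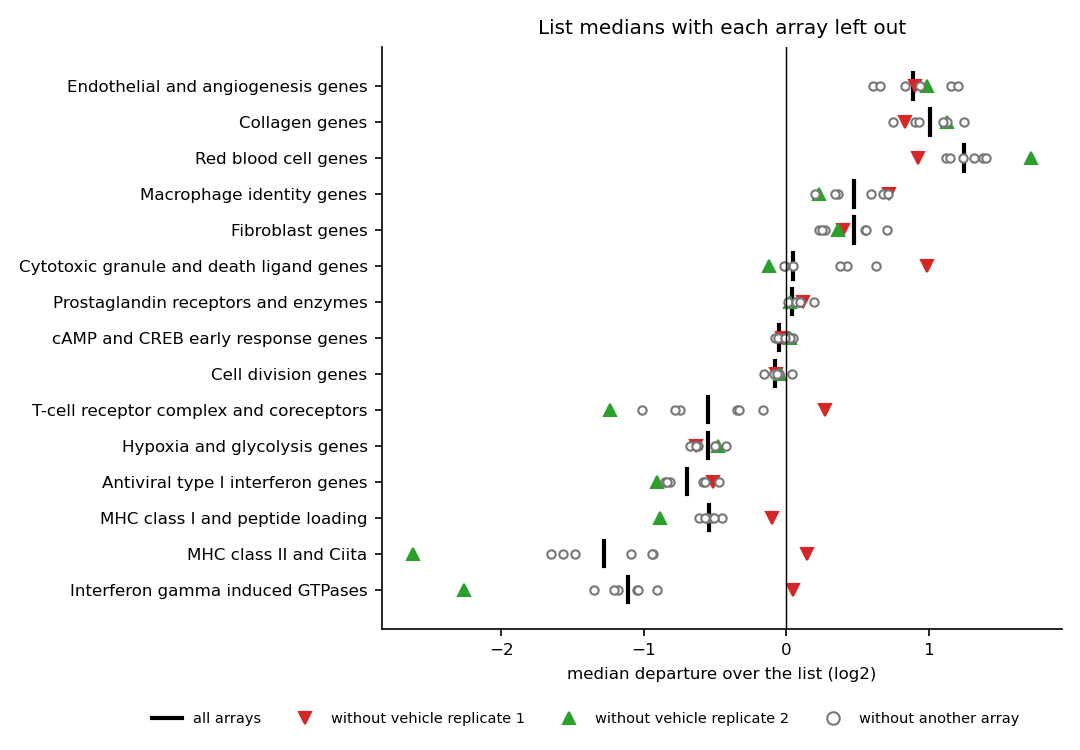
Median departure (log2) of 15 gene lists with all arrays (bars), without vehicle replicate 1 (red), without vehicle replicate 2 (green) and without each of the other arrays (open circles). The GTPases moved from -1.11 to 0.047 and -2.26 as a vehicle array was left out, while the endothelial median stayed between 0.61 and 1.21 and the collagen median between 0.75 and 1.25.

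In the main fit with all arrays, the remaining lists held 0 calls, against 2.79% of all genes above the sum and 0.486% below it. Their medians were -0.075 for cell division (17 genes), -0.18 for cytosolic ribosomal proteins (16 genes, all below 0), -0.056 for the mitochondrial respiratory chain (16), -0.35 for monocyte chemokines (10), 0.014 for dendritic cells (12), 0.11 for inflammatory cytokines (13), 0.14 for B cells and plasma cells (12), -0.016 for epithelial and tumor cell genes (11), -0.54 for skeletal muscle (18), 0.31 for digestive enzymes (6) and -3.38 for epidermis and hair follicle (6). The B-cell list took Bik (0.56) in place of Blk, and the epithelial and tumor list took Emb (0.83) in place of Gp70. Both are other genes, and the medians of these lists include them. Quantile normalization called 1 member below the sum in each of the monocyte, dendritic and B-cell lists, and 429 of all 31912 probes. A replicate block called 1 epidermis gene below it, and 181 of all probes. Several of the medians rested on 1 array. Skeletal muscle stood at 0.14 without vehicle replicate 1, 0.012 without anti-PD-1 replicate 1 and -1.22 with 4 called below without vehicle replicate 2. Epidermis and hair follicle stood at -5.09 with 4 called below without TP-16 replicate 1, which called 220 of the 31912 probes below the sum, and at -1.68 without TP-16 replicate 2. Monocyte chemokines had 3 calls below without vehicle replicate 2, and the ribosomal median was -0.0067 with quantile normalization. In cell division genes the departures lay between -0.21 and 0.13, the narrowest range of these lists. Ribosomal protein genes were lower under each agent and lowest under both, with a mean level of 8.98 and 8.97 on the vehicle arrays and 8.19 and 7.89 on the combination arrays.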

How the data were processed

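RNA of 8 CT26 tumor samples, 2 per group, was labelled with Cy3 and hybridised to 1-colour Agilent mouse arrays of 62976 spots on 1 slide. The extraction is given as a mirVana kit in the labels and as TRIzol in the methods. The spot intensities were deposited as scanner output of Agilent Feature Extraction 10.7.1.1, with background subtracted. The authors also deposited log2 values normalized in GeneSpring by a method not named, used here as an alternative. Their sorted values differed between arrays by at most 0.00115, as quantile normalization leaves them. This alternative therefore largely repeats quantile normalization and is not a separate check. From the processed intensities, log2 was taken after scaling each array to its 75th percentile, which was 371.1 to 733.6. Spots called outliers and control spots were left out, spots of a probe were averaged, and 31912 of 56567 probes were tested, those with each array of some group well above background. Of all probes, 51.4% to 59.7% were well above background on an array and 0 were saturated, and the number of arrays limits the precision. Names came from the array file, updated by accession through RefSeq (GRCm38.p6) for 58.3% of probes. Array positions are in mm9 and promoters in GRCm38.p6.

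The departure was a contrast in a limma fit of 4 group means (R 4.3.3, limma 3.58.1) with Benjamini-Hochberg adjustment over all tested probes, and ± gives its SE. A call is a departure of at least 2-fold at an unadjusted p of at most 0.05. A gene was represented by its tested probe with the highest mean level. Named genes were the 12 largest called departures in each direction among probes above background on all arrays, 8 T-cell genes, 3 targets, and up to 3 called members per list and direction, with clone-type names (such as those ending in Rik) left out of the first. The contrast, gene lists and naming rule were chosen with earlier results of these data known. The fit was tested on simulated data. Alternatives were quantile, normexp and the authors' values, other filters, moderation, blocks, thresholds, a linear scale, and leaving out each array.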

Additional observations from a re-analysis of the deposited data

How the results depend on the processing

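Against 1022 probes called (851 above the sum and 171 below), normexp background correction called 282 (198 and 84), no filter on dim probes 2060 (1808 above), only probes above background on all arrays 513 (409 and 104), an ordinary linear model 605 (497 and 108), and a fold of 1.5 called 1909 (1336 and 573). Quantile normalization called 461 above and 429 below with 14 probes at an adjusted p of 0.05, and the authors' log2 values 460, 427 and 14. These 14 were well above background on 2 to 4 arrays only. With 1 probe per gene 105 lay below, and an adjusted p of 0.10 passed 1 probe. With each array left out, the count ran from 767 (without TP-16 replicate 2) to 2026 (without vehicle replicate 1), above the sum from 553 to 1788, below it from 123 to 661, and at the adjusted p from 0 to 13 (without vehicle replicate 2). The cause was not tested.

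Of the 43 named genes called, 0 changed direction under any log2 setting, but 18 lost the call in an ordinary linear model, 7 with a slide column block, and 3 (without TP-16 replicate 1) to 21 (without combination replicate 2) with an array left out. With each array left out in turn, 19 kept it. On the linear scale Retnla (8.16), Ifng (1.38), Fasl (0.278), Pdcd1 (0.786) and Cd274 (2.78) changed sign. Quantile normalization and the authors' values each gave -0.11 for Il2ra and 0.19 for Lamp1. With each array left out, genes not called changed sign over these ranges: Gzmb -0.33 to 1.20, Tnf -0.03 to 1.13, Ifng -2.83 to 0.26, Il2ra -0.64 to 0.68, Cd69 -0.10 to 0.72, Lamp1 -0.12 to 0.05, Fasl -1.48 to 0.34, Pdcd1 -1.38 to 0.30 and Cd274 -1.09 to 0.13.

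Samples share only a replicate number. Their deviations correlated between groups from -0.193 to 0.29, and a replicate block called 1019 probes (838 above, 181 below), 912 of them among the 1022, and lost the call of 1 named gene, Cldn5. With 2 arrays a group, 56.7% of tested probes had an interval within 2-fold of additivity.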
